A study of Homo sapiens with 78 samples.

Results

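Solute carriers (SLC genes) encode membrane proteins that move amino acids, sugars, metals, vitamins, inorganic ions and other solutes across the plasma membrane and the membranes of organelles. The number after SLC names the subfamily, whose members share sequence and mostly carry related solutes. Some are uniporters, while others exchange solutes or use the sodium gradient that the sodium pump maintains. In airway and alveolar epithelium they feed the cell, set its volume and pH and drive the salt movements that fluid follows.

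The solute carriers described here were selected on their level in A549 cells, an established human lung carcinoma epithelial line. A gene was a member where its symbol read SLC, a number, A and a number, and where its mean was at least 1 TPM (an abundance per transcript length and per library, rescaled between libraries by the authors) over all 78 libraries. Of 337 genes with such a symbol, 187 were members, in 43 subfamilies, out of 19652 genes listed. The other 150 had lower means, and 3 of the 337 were listed at 0 in every library. The members nearest the threshold were SLC2A12 (mean of 1.01 TPM), SLC17A3 (1.23), SLC30A3 (1.28), SLC31A2 (1.30) and SLC30A4 (1.32). Just outside it were SLC16A6 (0.975), SLC25A18 (0.971), SLC16A8 (0.960), SLC6A12 (0.902) and SLC34A3 (0.901). All 187 members passed the filter on low values. In 16 members some group mean was below 1 TPM, and in SLC6A14 and SLC31A2 the mean of every unstimulated group was.

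The wild-type cells were kept overnight without serum and then left unstimulated (NS) in fresh serum-free medium or treated with IL-1β at 1 ng/ml, with budesonide at 300 nM, or with both. IL-1β is an inflammatory cytokine that activates the transcription factor NF-κB, and budesonide is an inhaled glucocorticoid that activates the glucocorticoid receptor. Cells were harvested at 1, 2, 6, 12 and 24 h, giving 20 groups. Each held 4 libraries apart from 2 groups of 3, the NS cells harvested at 6 h and the cotreated cells harvested at 12 h. The labels mention 4 independent experiments, or 3 at 12 h, without tying libraries to experiments, so the p-values measure the spread between these libraries, which may be technical. All groups are 1 carcinoma line, in which epithelial keratin genes were high (KRT8 from 1337 to 9289 TPM, KRT18 from 791 to 5894 TPM) and EPCAM and CDH1 were at 5.92 TPM or more in every library. Of 8 alveolar type II markers SFTPA1, SFTPA2, SFTPB, SFTPC and NAPSA stayed at or below 2.33 TPM, whereas LAMP3 reached 5.78 TPM, SFTPD reached 38.6 TPM and ABCA3 was at 7.85 to 15.8 TPM. Among leukocyte markers CD3E was 0 in every library and PTPRC and LYZ were at most 1.27 TPM, whereas CD68 was at 4.30 to 41.7 TPM.

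Library sums lay between 812680 and 1009499 TPM, mitochondrially encoded genes took 11.8% to 17.2% of them, and the depth in reads is unknown. The median absolute log2 difference of a library from the others of its group was 0.290 to 0.459 in 5 libraries, against at most 0.273 in the other 73. The 5 were number 2 of IL-1β (24 h), number 3 (2 h) and number 2 (12 h) of budesonide, and number 4 (1 h) and number 2 (12 h) of the cotreatment. Where 1 of these decides a result, the value without it is given beside that result.

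The first question was which carriers A549 cells express. Solute carriers took 0.534% to 0.689% of the summed TPM of a library. The levels spanned a wide range, with 9 members at or above 100 TPM, 99 between 10 and 100 TPM and 79 below 10 TPM, and a median mean of 12.9 TPM. TPM is per transcript length, so the levels of different genes are compared on that scale.

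The highest members were mitochondrial carriers and amino acid carriers. SLC25A5, an adenine nucleotide translocase that exchanges ADP for ATP across the inner mitochondrial membrane, had a mean of 552 ± 47.1 TPM (SD, n = 78), from 444 to 684 TPM. SLC25A3, the mitochondrial phosphate carrier, had 525 ± 57.7 TPM, and SLC25A6, a further adenine nucleotide translocase, had 262 ± 36.8 TPM. These neighbours in the order were close, since the ranges of SLC25A5 and SLC25A3 overlapped. Of the 31-base words of SLC25A5 transcripts, 29.4% also occurred on either strand in other annotated genes. Among genes outside the members its own antisense gene shared most. Whether this sharing affected its level was not tested.

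SLC3A2, the heavy chain that carries light subunits to the plasma membrane, was the highest amino acid carrier gene at 435 ± 76.4 TPM. Its partner SLC7A5, which exchanges large neutral amino acids, had 188 ± 44.0 TPM. SLC38A2, a sodium-coupled carrier of small neutral amino acids, had 185 ± 52.4 TPM, and the glutamine carrier SLC1A5 had 111 ± 26.0 TPM. Among other solutes the highest were the anion exchanger SLC4A2 (141 ± 15.1 TPM), the glucose carrier SLC2A1 (113 ± 38.8 TPM), the sodium-potassium-chloride cotransporter SLC12A2 (84.2 ± 36.2 TPM), the mitochondrial carrier SLC25A39 (82.4 ± 7.42 TPM) and the zinc importer SLC39A1 (73.3 ± 7.47 TPM). SLC12A2 varied most for its level in this list, from 14.2 to 161 TPM, whereas SLC25A39 ran from 69.2 to 111 TPM.

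By substrate the members fell into 12 classes. Mitochondrial carriers (subfamily 25) were the largest with 40 members and a median of 14.7 TPM. There were 28 amino acid carriers (median of 12.2 TPM), 27 metal carriers (20.5 TPM), 24 carriers of ions and acid or base (7.28 TPM), 18 sugar carriers (11.6 TPM), 13 carriers of vitamins and nucleosides (9.73 TPM) and 12 carriers of organic ions and bile acids (7.73 TPM). The largest subfamily after 25 was the zinc importers of subfamily 39, with 11 members.

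**Figure D1:**
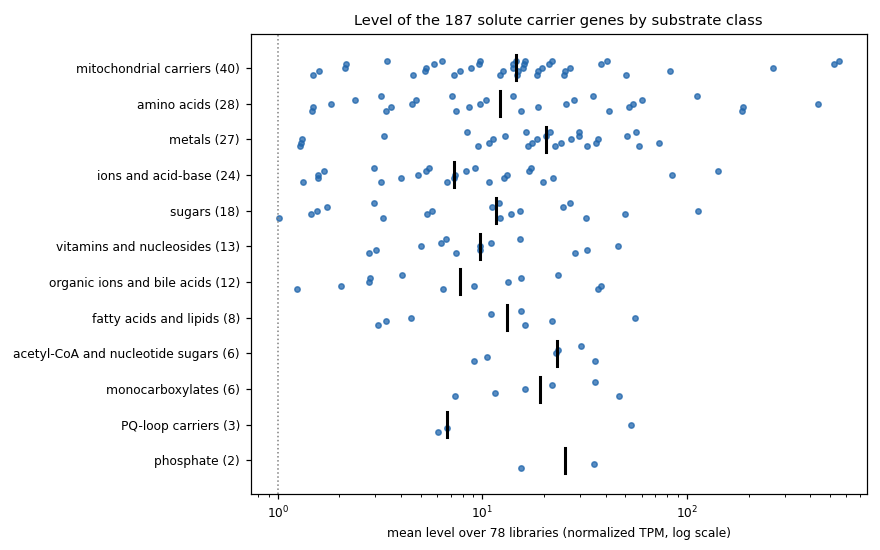
Each point is the mean level of 1 solute carrier gene over 78 libraries (normalized TPM, log axis), in rows by substrate class with the number of members in brackets. Black bars are class medians, which lie between 6.69 TPM for PQ-loop carriers and 25.4 TPM for phosphate carriers, and the dotted line is the threshold of 1 TPM.

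Across the 4 comparisons between treatments (each treatment against NS, and the cotreatment against IL-1β), 64 of 187 solute carriers (34.2%) were called at some time, and 123 were not. Among all 13327 genes tested the share was 25.9%. A gene was called where limma gave an adjusted p of at most 0.05 and the log2 change of TPM + 0.5 was at least 1 in size. Members with very low levels in most groups became members only through the groups where they were high, so their counts support nothing about solute carriers as a class. In bulk RNA a lower level can come from a smaller share of cells that express the gene or from less of its RNA, relative to other RNA, per cell. These cannot be told apart here.

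The called members came from 9 of the 12 classes. None of the 6 sodium-coupled amino acid carriers of subfamily 38, the 5 nucleotide sugar carriers of subfamily 35 or the 5 fatty acid carriers of subfamily 27 was called. Of all genes tested 25.9% were called, and subfamilies of 5 or 6 genes are too small to be set against that share. The largest change in these subfamilies was that of SLC27A2, which activates and takes up fatty acids, with 0.96 ± 0.23 (SE) on the log2 scale for budesonide against NS at 24 h (adjusted p = 0.00044).

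**Figure D2:**
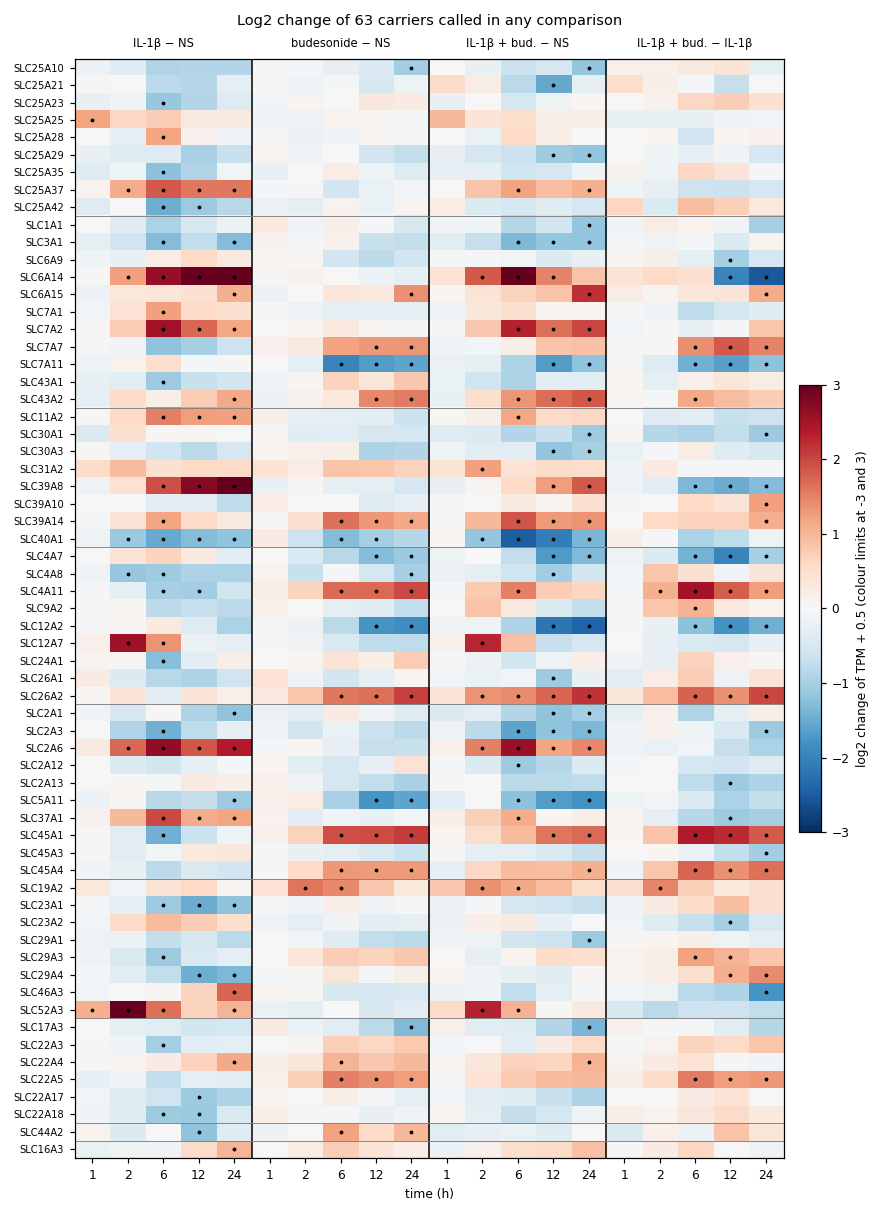
Rows are 63 of the 64 carriers called in any of the 4 comparisons, grouped by substrate class, and columns are the 5 times (h) within each comparison. Colour is the log2 change of TPM + 0.5, with its limits at -3 and 3, and dots mark calls, which were few at 1 h and 2 h and more numerous from 6 h.

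IL-1β raised a small set of carriers strongly. SLC39A8, which imports zinc and manganese, SLC52A3, a riboflavin carrier, SLC2A6, a hexose carrier of lysosomes, and SLC12A7, a potassium-chloride cotransporter, each rose by more than 2 on the log2 scale. At 1 or more times 19 of 187 carriers (10.2%) were upregulated, against 7.53% of all genes tested, and 20 (10.7%) were downregulated, against 8.80% of all genes. The upregulated members were 5 amino acid carriers, 3 metal carriers, 3 mitochondrial carriers and 2 sugar carriers. The others were 2 of the vitamin and nucleoside class, 2 monocarboxylate carriers, 1 ion carrier and 1 organic cation carrier. The downregulated members were 4 sugar carriers, 3 ion carriers, 3 vitamin and nucleoside carriers, 3 organic ion carriers, 3 mitochondrial carriers, 2 amino acid carriers, 1 metal carrier and 1 choline carrier.

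The counts grew after 2 h. In either direction 2 carriers (1.07%) were called at 1 h (all genes 1.03%), 7 (3.74%) at 2 h (all genes 3.32%) and 28 (15.0%) at 6 h (all genes 10.0%). There were 16 (8.56%) at 12 h against 6.72% of all genes, and 20 (10.7%) at 24 h against 8.07%. The median log2 change of the 187 carriers at 6 h was -0.10, and that of all genes -0.07. The centre of the family lay near that of all genes, and carriers moved in both directions (quartiles of -0.48 and 0.19 at 6 h).

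**Figure D3:**
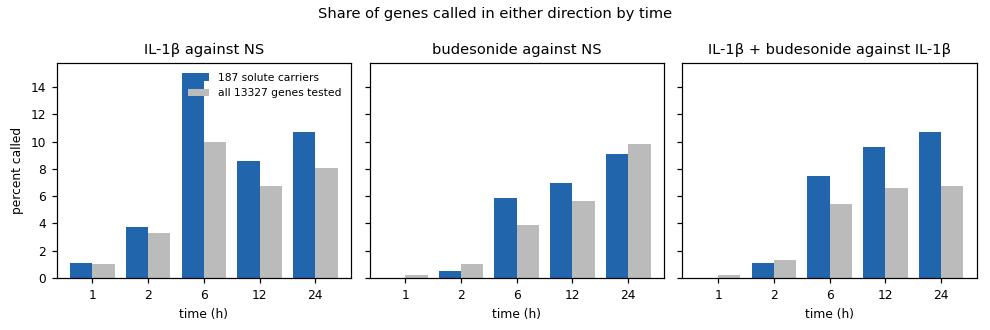
Bars give the percentage of genes called in either direction at each time (h), for the 187 solute carriers (blue) and all 13327 genes tested (grey), in 3 comparisons. For IL-1β against NS the carriers peak at 6 h with 15.0%, and for budesonide against NS they reach 9.09% at 24 h.

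Among metal carriers SLC39A8 changed most. At 24 h its level was 16.5, 17.2, 17.3 and 17.5 TPM in the 4 NS libraries and 157, 91.5, 189 and 204 TPM in the 4 IL-1β libraries. Every IL-1β library lay more than 70 TPM above every NS library, and the lowest of them is number 2, a library that stands apart from its group. The log2 change was 1.94 ± 0.21 (SE) at 6 h, 2.74 ± 0.20 at 12 h and 3.13 ± 0.20 at 24 h (adjusted p = 2.2e-21). At 1 h it was -0.16 ± 0.20 (adjusted p = 0.98) and at 2 h 0.43 ± 0.20 (adjusted p = 0.13), neither of them called.

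SLC11A2, which brings ferrous iron into the cytosol, also rose. At 6 h it was at 25.4, 22.5 and 21.4 TPM in NS and at 73.9, 66.0, 66.8 and 59.5 TPM with IL-1β, with no overlap (log2 change of 1.505 ± 0.17, adjusted p = 6.7e-11). The mitochondrial iron importer SLC25A37 (mitoferrin) went from 30.6, 25.3 and 24.5 TPM in NS to 98.6, 92.7, 86.6 and 110 TPM with IL-1β at 6 h (1.84 ± 0.10, adjusted p = 3.7e-24). It was called at each time from 2 h. Its relative SLC25A28 rose at 6 h (1.17 ± 0.10, adjusted p = 4.5e-16), and at 12 h its log2 change was 0.13 ± 0.09 (adjusted p = 0.29).

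The iron exporter SLC40A1 (ferroportin) moved the other way. At 6 h its level was 26.8, 24.1 and 33.1 TPM in NS and 12.4, 7.63, 10.6 and 7.64 TPM with IL-1β. All 4 IL-1β libraries lay below the NS libraries, and the log2 change was -1.52 ± 0.40 (adjusted p = 0.0013). It was downregulated at each time from 2 h. Of 27 metal carriers 3 were called upwards and 1 downwards for IL-1β, where 7.53% and 8.80% of all genes were. The last of these carriers was SLC39A14, an importer of zinc, manganese and iron (1.19 ± 0.13 at 6 h, adjusted p = 3.8e-12).

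SLC52A3 and SLC46A3, both of the class of vitamin and nucleoside carriers, rose on different schedules. SLC52A3 was at 1.29, 1.11, 1.44 and 1.63 TPM in NS at 2 h and at 17.5, 14.9, 14.2 and 15.6 TPM with IL-1β. The groups lay far apart, at 3.11 ± 0.13 on the log2 scale (adjusted p = 1.8e-29), and by 12 h the log2 change was 0.66 ± 0.13, with a further call at 24 h (1.01). It was already called at 1 h (1.06 ± 0.13, adjusted p = 7.7e-09).

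SLC46A3, a lysosomal carrier, rose only at the last time. At 24 h it was at 5.54, 4.89, 4.68 and 5.07 TPM in NS and at 15.4, 18.1, 24.7 and 15.0 TPM with IL-1β (1.74 ± 0.13, adjusted p = 6.2e-18). At 6 h the log2 change was 0.07 ± 0.14 (adjusted p = 0.72). SLC23A1, a sodium-coupled carrier of ascorbate, fell by 1.498 ± 0.36 on the log2 scale at 12 h (adjusted p = 0.0005). Its 4 NS libraries at 12 h were at 7.22, 6.96, 8.03 and 18.3 TPM and its IL-1β libraries at 2.14, 1.47, 4.08 and 5.60 TPM, without overlap though library number 4 was the highest in both.

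Among sugar carriers SLC2A6 rose and the glucose carriers SLC2A3 and SLC2A1 fell. At 6 h SLC2A6 was at 10.5, 11.1 and 10.6 TPM in NS and at 63.5, 69.6, 81.0 and 70.7 TPM with IL-1β. No library of either group came near the other (2.67 ± 0.15, adjusted p = 3.9e-24), and the log2 change was still 2.38 ± 0.14 at 24 h. SLC37A1, which exchanges glucose 6-phosphate for phosphate in the endoplasmic reticulum, was at 1.82, 2.56 and 1.79 TPM in NS and at 9.42, 10.2, 9.05 and 9.23 TPM with IL-1β at 6 h (1.98 ± 0.20, adjusted p = 1.3e-12).

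SLC2A3 at 6 h was at 18.1, 19.2 and 21.1 TPM in NS and at 5.17, 6.04, 9.54 and 7.19 TPM with IL-1β, a log2 change of -1.44 ± 0.19 (adjusted p = 5.0e-09). At 24 h its log2 change was -0.25 ± 0.18 (adjusted p = 0.29). Of its 31-base words 28.8% also occurred in other genes, most often in SLC2A14. SLC2A1, the main glucose carrier by level, was at 153, 91.4, 131 and 174 TPM in NS at 24 h and at 63.2, 41.8, 63.2 and 66.9 TPM with IL-1β. The groups did not overlap (-1.20 ± 0.27, adjusted p = 0.00031). At 6 h its log2 change was 0.04 ± 0.30, and SLC2A1 was called at 24 h only and SLC2A3 at 6 h only.

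SLC12A7 gave a short peak. At 2 h it was at 13.5, 12.4, 15.6 and 13.5 TPM in NS and at 81.5, 77.6, 78.1 and 90.4 TPM with IL-1β (2.54 ± 0.14, adjusted p = 7.1e-24). The log2 change was 1.35 ± 0.15 at 6 h and -0.17 ± 0.14 at 12 h (adjusted p = 0.37), when the group means with IL-1β had come back from 81.9 to 14.8 TPM. SLC25A25, a mitochondrial ATP-magnesium carrier, was called only at 1 h. There it was at 3.18, 3.13, 3.66 and 3.18 TPM in NS and at 8.68, 7.75, 8.30 and 7.58 TPM with IL-1β (1.18 ± 0.11, adjusted p = 7.6e-14).

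Of the amino acid carriers, SLC7A2, which imports arginine and other cationic amino acids, was at 1.38, 1.21 and 2.29 TPM in NS at 6 h and at 9.74, 9.38, 10.4 and 17.5 TPM with IL-1β. The groups were separate, with 1 IL-1β library well above the other 3 (2.51 ± 0.42, adjusted p = 1.0e-06). Its relative SLC7A1 rose at 6 h (1.23 ± 0.17, adjusted p = 9.6e-09). The highest amino acid carriers were not called, and their values at 6 h were 0.46 ± 0.11 for SLC3A2, -0.13 ± 0.10 for SLC7A5 and 0.48 ± 0.11 for SLC1A5.

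SLC6A14, a broad sodium- and chloride-coupled carrier of neutral and cationic amino acids, met the threshold of 1 TPM through its treated groups alone, so its difference from NS is a description. At 24 h it was at 0.237, 0.236, 0.239 and 0.140 TPM in NS and at 5.52, 2.52, 11.3 and 12.7 TPM with IL-1β. The IL-1β group means ran from 0.165 TPM at 1 h through 1.01, 2.98 and 6.88 TPM to 8.02 TPM at 24 h, while no NS group mean was above 0.213 TPM.

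Of the monocarboxylate carriers, the lactate exporter SLC16A3 was called at 24 h only (1.02 ± 0.21, adjusted p = 7.9e-05), with group means of 31.9 ± 8.3 TPM in NS and 65.3 ± 18 TPM with IL-1β (SD, n = 4 each). Without 1 NS library (number 2 or 4) or IL-1β library 3 its log2 change was 0.97, 0.89 or 0.85, below the minimum for a call.

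**Figure D4:**
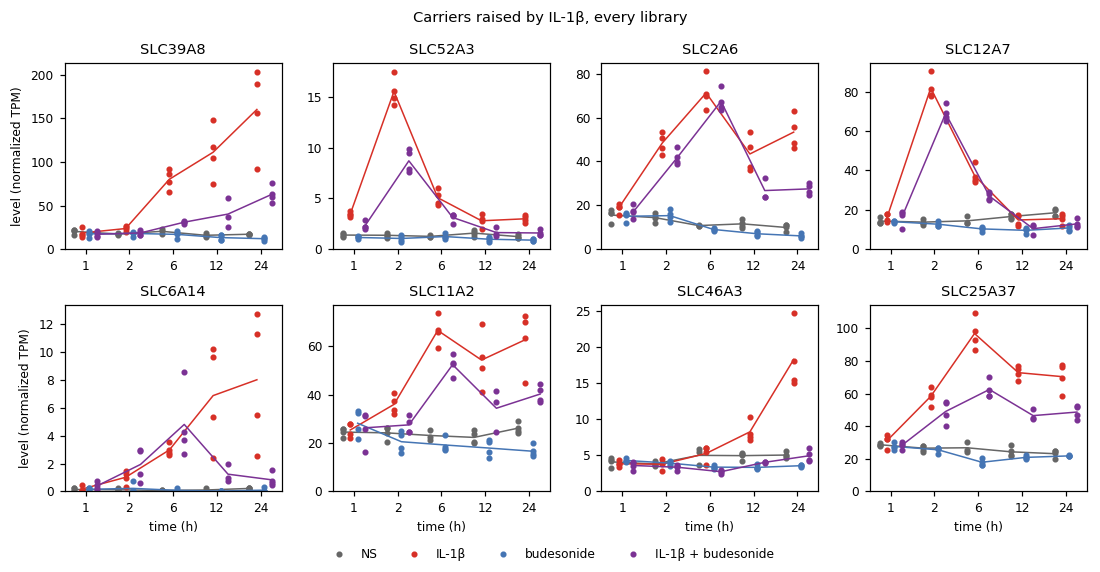
Points are the level (normalized TPM, linear axis from 0) in every library at each time (h) for 8 carriers raised by IL-1β, and lines join group means of 4 libraries, or 3 in the groups named above. SLC52A3 and SLC12A7 peak at 2 h, SLC2A6 and SLC25A37 at 6 h, and SLC39A8, SLC6A14 and SLC46A3 are highest at 24 h with IL-1β alone.

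Other carriers led the changes with budesonide. The most upregulated were SLC45A1, a proton-coupled sugar carrier, SLC26A2, a sulfate carrier, and SLC4A11, a carrier of the bicarbonate subfamily that conducts protons and ammonia, and the most downregulated were the cystine importer SLC7A11 and the cotransporter SLC12A2. At 1 or more times 12 carriers (6.42%) were upregulated, against 4.87% of all genes tested, and 8 (4.28%) were downregulated, against 6.36%. Upregulated members were 3 amino acid carriers, 2 organic cation carriers, 2 ion carriers, 2 sugar carriers, 1 metal carrier, 1 vitamin carrier and 1 choline carrier. Downregulated members were 3 ion carriers and 1 each of amino acid, sugar, metal, mitochondrial and organic anion carriers.

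At 1 h limma called 0 carriers (3 had an unadjusted p below 0.05), against 0.203% of all genes. The counts were 1 (0.535%) at 2 h against 0.998% of all genes, 11 (5.88%) at 6 h against 3.86%, 13 (6.95%) at 12 h against 5.61% and 17 (9.09%) at 24 h against 9.80%. The carrier called at 2 h was the thiamine carrier SLC19A2. It was at 4.78, 4.50, 4.43 and 4.81 TPM in NS and at 14.0, 15.4, 13.4 and 17.9 TPM with budesonide (1.60 ± 0.11, adjusted p = 7.8e-18). Its log2 change was 0.31 ± 0.11 at 24 h, below the minimum for a call.

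SLC45A1 was at 2.81, 2.09, 2.29 and 3.54 TPM in NS at 24 h and at 13.1, 13.2, 12.0 and 13.8 TPM with budesonide. The spread within each group was small beside the gap (2.11 ± 0.15, adjusted p = 7.8e-19). SLC45A4, another member of its subfamily, rose at 6, 12 and 24 h (1.31 ± 0.22 at 6 h, adjusted p = 3.5e-06).

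SLC26A2 stood at 7.53, 8.13, 7.56 and 9.18 TPM in NS at 24 h and at 34.9, 37.1, 40.9 and 27.7 TPM with budesonide (2.04 ± 0.18, adjusted p = 2.3e-15). SLC4A11 at that time was at 11.5, 7.48, 7.08 and 6.48 TPM in NS and at 37.1, 39.8, 28.1 and 27.8 TPM with budesonide (1.98 ± 0.21, adjusted p = 2.1e-12). Neither gene's groups overlapped, and both were called from 6 h onwards.

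The carnitine carrier SLC22A5 went from 20.8, 16.3 and 22.5 TPM in NS to 54.6, 50.1, 51.9 and 73.1 TPM with budesonide at 6 h (1.51 ± 0.20, adjusted p = 1.9e-08). Its neighbour in the subfamily, the ergothioneine carrier SLC22A4, passed the threshold narrowly at 6 h (1.03 ± 0.15, adjusted p = 2.1e-07) from group means of 1.90 to 4.35 TPM, and without budesonide library 1 its log2 change was 1.00, or without NS library 1 0.92, short of a call. Among amino acid carriers SLC43A2, which carries branched-chain and aromatic amino acids, was at 4.74, 4.17, 4.23 and 3.77 TPM in NS at 24 h and at 14.3, 13.2, 12.8 and 13.2 TPM with budesonide (1.55 ± 0.17, adjusted p = 1.6e-11).

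SLC7A7, a light subunit that exchanges cationic for neutral amino acids, showed how far libraries can differ. At 24 h it was at 50.2, 45.5, 47.1 and 111 TPM in NS and at 129, 116, 107 and 305 TPM with budesonide. Library number 4 was far above the other 3 in both groups, and the groups overlapped, while within every library number the budesonide value was above the NS value. The log2 change was 1.33 ± 0.51 (adjusted p = 0.030). Without budesonide library 4 it was 0.99 (adjusted p = 0.15), and without any 1 of NS libraries 1, 2 and 3 the adjusted p was between 0.068 and 0.080. These values come from the fit that does not pair libraries. With the replicate number added to the limma fit as a block, the log2 change was 1.33 (adjusted p = 9.55e-19).

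A promoter window of SLC7A7 is shown because it alone, among windows of the carriers raised by budesonide, held the core of a glucocorticoid response element. The core was searched as ACANNNTGT, which reads the same on both strands. The other windows of SLC7A7 did not hold it. RefSeq windows of 300 bases, from upstream of a start of transcription to 50 bases after it, were matched to 8 of these 12 carriers (14 windows). The core occurred in 5.37% of all 35116 such windows and in 3.59% of the 223 windows of members. The window lies at chr14:22815822-22816121 (minus strand, GRCh38.p14), and capitals mark the core, which starts at position -60 from the start.
SLC7A7: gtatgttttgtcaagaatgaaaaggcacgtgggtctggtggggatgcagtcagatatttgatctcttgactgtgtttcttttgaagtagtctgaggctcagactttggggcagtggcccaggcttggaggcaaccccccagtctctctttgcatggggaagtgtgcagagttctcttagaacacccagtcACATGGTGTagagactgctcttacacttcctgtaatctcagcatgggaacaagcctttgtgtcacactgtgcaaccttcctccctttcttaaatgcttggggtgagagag
For the carriers raised by IL-1β, 13 of 19 were matched (27 windows), and 0 windows held an NF-κB core searched on both strands as GGAANTTCC or GGANTTTCC, letters that 2.14% of all windows held. A match is a description of letters, and no match says only that they are not in these windows.

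Of the carriers lowered by budesonide, SLC7A11, which imports cystine in exchange for glutamate, was at 54.7, 58.1 and 62.6 TPM in NS at 6 h and at 15.1, 16.3, 10.8 and 16.3 TPM with budesonide. No library overlapped (-1.98 ± 0.25, adjusted p = 4.4e-09), and the fall was still called at 24 h (-1.58 ± 0.23). The partner SLC3A2 was not called, with a log2 change of -0.33 ± 0.11 at 6 h.

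SLC12A2, which loads cells with sodium, potassium and chloride, was at 142, 147, 161 and 126 TPM in NS at 24 h and at 42.0, 46.2, 43.1 and 28.4 TPM with budesonide (-1.85 ± 0.24, adjusted p = 1.4e-09). At 2 h the log2 change was -0.18 ± 0.24 (adjusted p = 0.85). The bicarbonate importer SLC4A7 was at 22.0, 14.2, 23.8 and 17.7 TPM in NS at 12 h and at 10.4, 3.42, 10.3 and 8.27 TPM with budesonide (-1.29 ± 0.34, adjusted p = 0.0019). The lowest value came from number 2, a library that stands apart from its group, and without it the log2 change was -0.95 (adjusted p = 0.034), below the minimum for a call at 12 h, though SLC4A7 was also called at 24 h (-1.12 ± 0.34).

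SLC5A11, a sodium-coupled carrier of inositol, was a low member that fell at 12 h from 2.84, 2.36, 1.67 and 4.04 TPM in NS to 0.521, 0.284, 0.316 and 0.579 TPM with budesonide (-1.76 ± 0.28, adjusted p = 4.6e-07). The mitochondrial dicarboxylate carrier SLC25A10 passed the threshold only at 24 h (-1.03 ± 0.13, adjusted p = 4.4e-10), and 43.3% of its 31-base words also occurred in other genes, most often in 1 other annotated gene. Without 1 library (budesonide number 2 or NS number 3) its log2 change was -0.99 or -0.98. The higher amino acid carriers SLC7A5 and SLC1A5 were lower with budesonide by less than the minimum for a call (-0.74 ± 0.09 at 24 h and -0.64 ± 0.10 at 12 h).

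**Figure D5:**
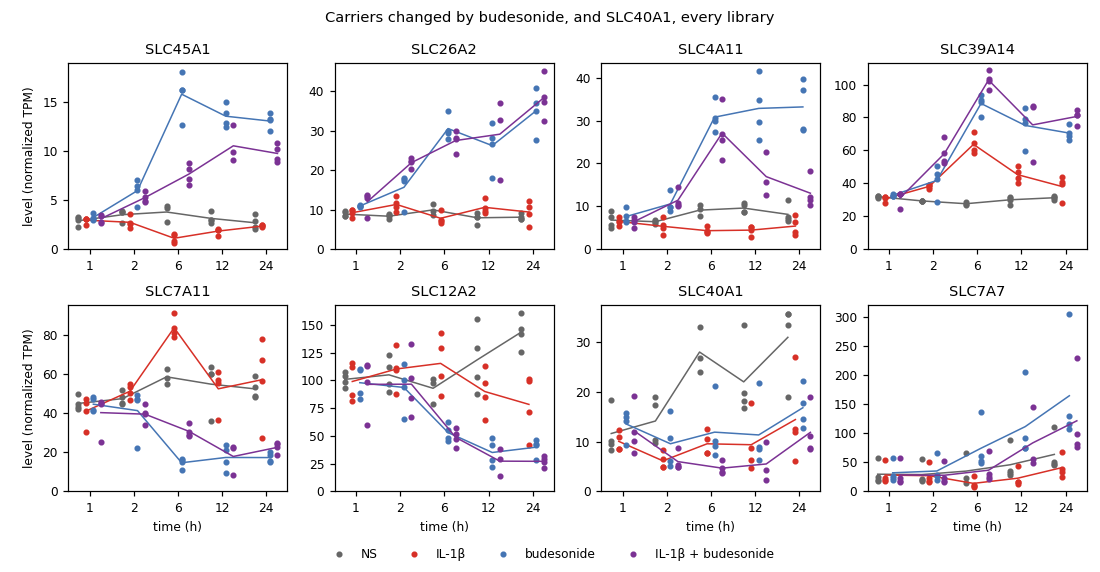
Points are the level (normalized TPM, linear axis from 0) in every library at each time (h) for SLC40A1 and 7 carriers changed by budesonide, and lines join group means of 4 or 3 libraries. With budesonide alone SLC45A1, SLC26A2 and SLC4A11 lie above NS from 6 h and SLC7A11 and SLC12A2 below it from 6 h, and in SLC7A7 a single library lies far above the rest.

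Some carriers were called for IL-1β and for budesonide, comparisons that share their NS libraries, and the values of each are given side by side. SLC4A8, a sodium-coupled exchanger of bicarbonate and chloride, was at -1.14 ± 0.33 with IL-1β at 2 h (adjusted p = 0.010) and at -1.002 ± 0.33 with budesonide at 24 h (adjusted p = 0.012). The IL-1β call at 2 h was lost with a pseudocount of 1 TPM (-0.93). It was also lost without all libraries of replicate 1 (-0.97, adjusted p = 0.12) or of replicate 2 (-1.10, adjusted p = 0.064). The budesonide call was lost without any 1 of budesonide libraries 1 and 4 and NS libraries 2 and 4, with log2 changes of -0.96 to -0.70, and with a pseudocount of 1 TPM (-0.72), median-of-ratios scaling (-0.99) or quantile normalization (-0.85). SLC5A11 was at -1.09 ± 0.28 with IL-1β at 24 h (adjusted p = 0.0012) beside its fall with budesonide, and the IL-1β change was -0.97 without IL-1β library 1 and -0.98 without NS library 4, short of a call, as it was with a pseudocount of 1 TPM (-0.90) or quantile normalization (-0.98).

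SLC39A14 was raised by each agent. At 6 h it was at 27.2, 26.8 and 28.9 TPM in NS, at 60.4, 58.6, 64.5 and 71.1 TPM with IL-1β, at 93.8, 90.4, 89.5 and 80.3 TPM with budesonide and at 96.8, 102, 109 and 103 TPM with both. The 4 groups did not overlap, and the order was NS, IL-1β, budesonide and the cotreatment. The budesonide change was 1.66 ± 0.13 (adjusted p = 2.8e-17), and the interaction, which is the cotreatment change minus the sum of the single changes, was -0.97 ± 0.17 (adjusted p = 2.5e-05), just under the minimum for a call.

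SLC40A1 was lowered by each agent. Its budesonide libraries at 6 h were at 9.09, 10.1, 7.27 and 21.2 TPM and its cotreatment libraries at 3.99, 4.79, 3.68 and 6.24 TPM, against 24.1 to 33.1 TPM in NS. The cotreatment change was -2.48 ± 0.40 (adjusted p = 9.0e-07), and the interaction was 0.35 ± 0.55 (adjusted p = 0.80). The single budesonide change at 6 h was -1.30 ± 0.40 (adjusted p = 0.016). Without budesonide library 3 the adjusted p was 0.074 and without NS library 4 it was 0.082, whereas SLC40A1 was also called for budesonide at 12 h (-1.03 ± 0.37).

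SLC43A2 and SLC6A15, both carriers of neutral amino acids, ended highest with both agents. SLC43A2 at 24 h was at 10.9, 9.20, 11.3 and 8.31 TPM with IL-1β and at 15.9, 16.3, 18.0 and 16.5 TPM with both, each above all NS and, for the cotreatment, above all budesonide libraries. SLC6A15 at 24 h was at 1.85, 1.57, 1.31 and 3.05 TPM in NS, 5.27, 1.73, 5.47 and 7.48 TPM with IL-1β, 7.05, 4.95, 3.95 and 7.14 TPM with budesonide and 9.71, 8.66, 10.9 and 12.1 TPM with both. The IL-1β library at 1.73 TPM, number 2, stands apart from its group and lies within the NS range. The IL-1β change was 1.07 ± 0.29 (adjusted p = 0.0024), and it was below 1 without NS library 3 (0.94) or IL-1β library 3 (0.99) or 4 (0.85). The change of the cotreatment against IL-1β was 1.11 ± 0.29, and 0.73 without IL-1β library 2.

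SLC45A1 and SLC4A11 were lower with IL-1β at 6 h and higher with the cotreatment. SLC45A1 was at 4.21, 2.73 and 4.39 TPM in NS, at 1.51, 0.849, 1.47 and 0.597 TPM with IL-1β and at 7.08, 8.18, 8.77 and 6.54 TPM with both (2.38 ± 0.15 for the cotreatment against IL-1β, adjusted p = 1.2e-20). SLC4A11 was at 10.2, 7.77 and 9.33 TPM in NS, 4.14, 3.73, 5.42 and 3.97 TPM with IL-1β and 35.1, 26.9, 25.6 and 20.8 TPM with both (2.51 ± 0.21, adjusted p = 6.7e-16). In each gene the 3 groups were apart, with the cotreatment on top.

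The cotreatment was then set against IL-1β alone, which asks how levels differed when budesonide was given along with IL-1β. The sulfate carrier SLC26A2 and the pair SLC45A1 and SLC4A11 were again among the most raised. The IL-1β-raised carriers SLC46A3 and SLC39A8 were among the most lowered. SLC6A14 is counted among the lower carriers, but it became a member through its treated groups, so its difference here is a description. At 1 or more times 14 carriers (7.49%) were higher than with IL-1β alone, against 5.15% of all genes tested, and 14 (7.49%) were lower, against 5.60%. At 1 h limma called 0 carriers (4 had an unadjusted p below 0.05) against 0.240% of all genes, and at 2 h 2 (1.07%) against 1.32%. The counts were 14 (7.49%) at 6 h against 5.42% of all genes, 18 (9.63%) at 12 h against 6.57% and 20 (10.7%) at 24 h against 6.73%.

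SLC39A8 at 24 h was at 63.9, 52.4, 75.9 and 59.4 TPM with both agents and at 11.8, 13.4, 9.44 and 13.3 TPM with budesonide alone. The cotreatment libraries lay below all IL-1β libraries (91.5 TPM and above) and above all NS libraries (17.5 TPM and below). The change against IL-1β was -1.29 ± 0.20 at 24 h (adjusted p = 1.8e-07).

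SLC46A3 at 24 h was at 4.36, 5.13, 5.96 and 4.28 TPM with both agents and 3.47, 3.69, 3.68 and 3.43 TPM with budesonide, with a change against IL-1β of -1.77 ± 0.13 (adjusted p = 3.5e-18).

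SLC6A14 at 24 h was at 1.52, 0.491, 0.746 and 0.570 TPM with both agents and at 0.0196, 0.0193, 0.0291 and 0.291 TPM with budesonide. Each cotreatment library was below the lowest IL-1β library (2.52 TPM). At 6 h the group means were 2.98 TPM with IL-1β and 4.81 TPM with both, with overlapping libraries, and at 12 h they were 6.88 and 1.24 TPM.

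Other carriers raised by IL-1β stayed above NS in the cotreatment. SLC2A6 at 6 h was at 63.3, 64.9, 74.6 and 66.9 TPM with both agents, overlapping with IL-1β alone (-0.08 ± 0.14, adjusted p = 0.73), and at 24 h it differed by -0.94 ± 0.14. SLC25A37 at 6 h was at 62.5, 58.4, 58.7 and 70.4 TPM with both, below all IL-1β libraries and above all NS libraries (-0.63 ± 0.09). SLC52A3 at 2 h was at 9.88, 7.61, 7.87 and 9.49 TPM with both (-0.81 ± 0.13, adjusted p = 7.4e-06), between NS and IL-1β and short of a call.

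Among carriers lowered by budesonide, SLC12A2 at 24 h was at 99.3, 41.6, 102 and 71.2 TPM with IL-1β and at 29.6, 20.7, 31.8 and 26.2 TPM with both (-1.45 ± 0.24, adjusted p = 1.1e-06). The 2 groups were apart, and the lowest IL-1β library was again number 2. SLC4A7 at 12 h was at 27.8, 18.2, 26.2 and 21.5 TPM with IL-1β and at 11.8, 1.66 and 7.69 TPM with both (-1.97 ± 0.36, adjusted p = 1.2e-05), the value of 1.66 TPM being from a library that stands apart, number 2. SLC4A7 was also called at 6 h (-1.41 ± 0.34) and 24 h (-1.01 ± 0.34). Calls at 12 h that were lost without that library were those of the inositol carrier SLC2A13 (-0.81 without it), SLC37A1 (-0.95), the glycine carrier SLC6A9 (-0.78) and the ascorbate carrier SLC23A2 (-0.55).

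The cotreatment against NS gave 19 upregulated carriers (10.2%, all genes 7.64%) and 19 downregulated ones (10.2%, all genes 7.92%). Among the highest changes were SLC2A6 (2.59 ± 0.15 at 6 h), SLC52A3 (2.30 ± 0.13 at 2 h), SLC7A2 (2.30 ± 0.42 at 6 h), SLC12A7 (2.29 ± 0.14 at 2 h), SLC6A15 (2.19 ± 0.29 at 24 h) and SLC26A2 (2.17 ± 0.18 at 24 h). The lowest were SLC40A1 (-2.48 ± 0.40 at 6 h), SLC12A2 (-2.40 ± 0.24 at 24 h), SLC5A11 (-1.80 ± 0.28 at 24 h), SLC4A7 (-1.70 ± 0.36 at 12 h) and SLC7A11 (-1.68 ± 0.25 at 12 h). Without the IL-1β-plus-budesonide library number 2 at 12 h SLC4A7 was at -0.96 (adjusted p = 0.041), short of a call at that time, while it was also called at 24 h.

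Whether the 2 agents' changes added up on the log2 scale was tested with the interaction. It was called upwards at some time for 5 carriers (2.67%), against 4.52% of all genes tested, and downwards for 7 (3.74%), against 3.47%. The 7 include SLC6A14, for which the interaction is no test. SLC39A8 had a downward interaction at 6 h and 12 h (-1.22 ± 0.29 at 12 h, adjusted p = 0.0021, and -0.94 without the cotreatment library number 2). The 12 h call was also lost without all libraries of replicate 1 (-1.04, adjusted p = 0.11). It was lost too with only the compared groups in the limma fit (adjusted p = 0.093).

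SLC44A2, a choline carrier, had one at 6 h (-1.38 ± 0.41, adjusted p = 0.016). It was at 11.9, 13.9 and 6.20 TPM in NS, 9.86, 9.07, 8.90 and 12.6 TPM with IL-1β, 23.5, 31.9, 31.3 and 14.0 TPM with budesonide and 7.90, 8.15, 11.4 and 8.11 TPM with both. The budesonide libraries lay above all other libraries, while the other 3 groups overlapped. Without the NS library at 6.20 TPM (number 4) the interaction was -1.05 (adjusted p = 0.12) and the budesonide change 0.87 (adjusted p = 0.070). Its fall with IL-1β at 12 h was -1.21 ± 0.28, and -0.85 without IL-1β library 4.

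The largest upward interaction was that of the zinc importer SLC39A10, and another was that of SLC29A4, a carrier of monoamines and adenosine. SLC39A10 at 24 h was at 29.9, 28.0, 34.0 and 51.6 TPM in NS, 23.1, 11.0, 21.3 and 31.5 TPM with IL-1β, 27.8, 29.7, 29.0 and 31.6 TPM with budesonide and 44.1, 41.3, 57.5 and 51.9 TPM with both (1.46 ± 0.41, adjusted p = 0.0076). The cotreatment lay above IL-1β and budesonide without overlap but overlapped with NS, and 11.0 TPM is again IL-1β library number 2. Without that library the change of the cotreatment against IL-1β was 0.94 in place of 1.23. The call of the interaction was lost without all libraries of replicate 1 (1.61, adjusted p = 0.051) or of replicate 3 (1.40, adjusted p = 0.072).

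SLC29A4 at 24 h was at 14.0, 15.8, 22.2 and 11.6 TPM in NS, 5.44, 7.12, 6.90 and 4.27 TPM with IL-1β, 16.9, 19.2, 21.9 and 13.1 TPM with budesonide and 16.2, 19.7, 20.7 and 10.8 TPM with both. IL-1β alone was below every library of the other 3 groups, which overlapped (interaction of 1.25 ± 0.39, adjusted p = 0.020). Without 1 library (NS number 3, IL-1β number 4, budesonide number 4 or cotreatment number 3) the adjusted p was 0.051 to 0.063.

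In NS alone, 24 h was compared with 1 h to see what culture time did. Upregulated were 3 carriers (1.60%, all genes 0.420%), SLC17A3, an organic anion carrier, SLC23A1 and SLC40A1, and 0 were downregulated (all genes 0.210%), with 43 carriers in either direction at an unadjusted p below 0.05 in limma. SLC40A1 had NS group means of 11.6 ± 4.6 TPM at 1 h and 31.0 ± 8.1 TPM at 24 h (SD, n = 4 each; 1.40 ± 0.37, adjusted p = 0.011, and 0.060 without NS library 2 at 1 h). SLC17A3 went from 0.965 ± 0.61 to 3.62 ± 1.5 TPM (1.505 ± 0.36, adjusted p = 0.0041), and SLC23A1 from 5.03 ± 2.2 to 14.6 ± 4.5 TPM (1.495 ± 0.36, adjusted p = 0.0041). SLC40A1 was lowered by both single treatments, SLC23A1 by IL-1β and SLC17A3 by budesonide at matched times, where time in culture was the same.

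Solute carriers work beside other proteins, and 38 partner genes (sodium pump subunits and regulators, kinases of ion transport, scaffolds, and carriers with other names) were set beside them, of which 31 were tested. For IL-1β 2 were called upwards, 5 downwards and 24 not, where 7.53% and 8.80% of all genes were called upwards and downwards. For budesonide the counts were 5, 3 and 23, where the shares of all genes were 4.87% and 6.36%. ATP1B1, a β subunit of the sodium pump, rose with IL-1β (1.39 ± 0.12 at 6 h, adjusted p = 3.3e-16). With both agents at 6 h ATP1B1 was at 0.23 ± 0.12 against NS, not called, and at -1.17 ± 0.11 against IL-1β. The kinase SGK1 rose with budesonide at every time (1.66 ± 0.19 at 6 h, adjusted p = 1.8e-10).

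The scaffold gene PDZK1 fell with IL-1β (-3.13 ± 0.43 at 24 h, adjusted p = 1.2e-08) and rose with budesonide (1.63 ± 0.43 at 24 h, adjusted p = 0.0013). The scaffolds SLC9A3R1 and SLC9A3R2, whose symbols lie outside the naming rule for members, fell with IL-1β at 6 h (-1.20 ± 0.24 and -1.499 ± 0.20). SLCO2B1, an organic anion carrier, rose with IL-1β by 3.10 ± 0.36 at 6 h (adjusted p = 6.4e-11), and the cotreatment was lower than IL-1β alone (-1.96 ± 0.33 at 6 h). For the cotreatment the counts of partners up, down and not called were 3, 5 and 23 against NS (all genes 7.64% up and 7.92% down) and 4, 3 and 24 against IL-1β (5.15% and 5.60%).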

How the data were processed

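A549 mRNA was sequenced from stranded poly(A) libraries. The authors quantified transcripts with kallisto and normalized them with sleuth, and the deposited values are TPM rescaled between libraries, a normalized signal with no read counts. The deposited comparison tables hold the authors' fold changes and p-values and were not used. The table holds 1 library (NS at 6 h, number 3) that the labels used here do not list, and it was not analysed. A gene needed 1 TPM or more in 3 or more libraries, which left 13327 and removed 6325, and was tested as log2(TPM + 0.5), which understates changes of low genes. limma 3.58.1 (R 4.3.3) fitted 1 mean per group to 78 libraries (58 residual degrees of freedom, trend on mean level). P-values are two-sided and Benjamini-Hochberg adjusted over all 13327 genes of a contrast. Values after ± are SE for log2 changes and SD for TPM. Simulated data with known changes were used to test the fit. The members, gene lists and partner list were chosen with earlier results of these data known. Genes named were the largest rises and falls called in each comparison, the highest members, those at the threshold, the extremes of each subfamily, members called by both agents and the largest interactions. Results for 1 carrier and 1 partner gene are not reported here, though counts include them. The remaining called members were named after their values were seen. Substrate classes follow textbook roles of each subfamily. Words of 31 bases were compared on either strand with GENCODE v44 transcripts, which may differ from the authors' transcript set. The gene named as sharing most was sought outside the members. Alternatives tried were other pseudocounts, filters, scalings, fits, a replicate block, a fold of 1.5 and leaving out libraries.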

Additional observations from a re-analysis of the deposited data

Results flagged for a closer look

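The changes by budesonide differed with and without IL-1β for 10 carriers named here, by the interaction in limma. Downward interactions on the log2 scale were -1.38 for SLC44A2 at 6 h, -1.33 for SLC46A3 at 24 h, -1.22 for SLC39A8 at 12 h, -1.18 for SLC2A1 at 6 h and -1.07 for SLC22A4 at 24 h. Upward ones were 1.46 for SLC39A10 at 24 h, 1.40 for SLC4A8 at 24 h, 1.30 for SLC26A1 at 6 h, 1.25 for SLC29A4 at 24 h and 1.05 for SLC22A23 at 6 h. SLC4A8 exchanges sodium and bicarbonate for chloride, SLC26A1 carries sulfate and SLC22A23 is an orphan of the organic ion subfamily. The call for SLC2A1 had an adjusted p of 0.050 and was lost without any 1 of 13 libraries. That for SLC4A8 was lost without any 1 of 7 libraries and its value was 0.58 without replicate 4. That for SLC26A1 was lost without any 1 of 4 libraries, and those for SLC22A23 and SLC22A4 without either of 2.

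Of 81 groups of 4 libraries whose values are given, 9 held 1 library far from the other 3 by Dixon's criterion, where chance gives about 1 in 20. Library number 4 was the one in SLC7A7 with NS (111 TPM) and with budesonide (305 TPM) at 24 h, in SLC23A1 with NS at 12 h (18.3 TPM), in SLC7A2 with IL-1β at 6 h (17.5 TPM) and in SLC6A14 with NS (0.140 TPM) and with budesonide (0.291 TPM) at 24 h. The others were number 3 in SLC25A25 with NS at 1 h (3.66 TPM) and in SLC44A2 with both agents at 6 h (11.4 TPM), and number 2 in SLC2A1 with IL-1β at 24 h (41.8 TPM). Their causes were not tested.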

How the results depend on the processing

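Of 140 calls (a carrier, comparison and direction, each at its largest change), 97 were kept without any 1 library, 84 under every setting tried, and 0 changed sign. From a fold of 1.5 the counts were 34 up and 47 down for IL-1β, 25 and 31 for budesonide, 33 and 41 for the cotreatment against NS, 32 and 40 against IL-1β, 14 and 16 for the interaction, and 8 and 3 for NS at 24 h. With a mean of at least 5 TPM they were 11 up for IL-1β, 5 down for budesonide, 12 up and 10 down for the cotreatment against NS, 8 down against IL-1β, and 3 and 3 for the interaction, fewer genes being tested. With a pseudocount of 1 TPM 9 were down against IL-1β and 3 interactions were up. Leaving out libraries gave 1 to 6 upward and 4 to 8 downward interactions (1 without replicate 1, 3 without replicate 3 and without IL-1β or budesonide library 4 at 24 h, and 4 without replicate 4), and for NS at 24 h 0 to 4 up and 0 to 1 down (0 without replicate 1). Without the 5 libraries that stand apart no count moved by over 1.5 times. The labels give groups the same replicate numbers. Same-numbered libraries correlated in their deviations at -0.12 to 0.83 (above 0.1 in 111 of 114 pairs, best with their own number in 113). The labels do not tie these numbers to experiments, so the main fit did not pair libraries, and its p-values leave this likeness out. With a replicate block the counts were 19 and 21 for IL-1β, 12 and 8 for budesonide, 14 and 14 against IL-1β and 7 and 7 for the interaction, and 1 call was lost, SLC23A2 (-0.91). For SLC7A7 with budesonide at 24 h the block left 1.33 with an adjusted p of 9.55e-19 in place of 0.030. Read depth is unknown, so no counting error is given for low carriers.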
